A study of Mus musculus with 10 samples.

Results

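H3K4me3 in mouse embryonic stem cells expressing the R form of Dnmt3a2 was compared with H3K4me3 in cells expressing WT Dnmt3a2. Every region of the H3K4me3 density table was used, 32293 of the 85618 regions in the 3 deposited tables, and the 2 libraries compared are among 10 listed samples. Both came from Dnmt TKO ESCs of the J1 ES line, at passages 7 to 10, by ChIP-seq with the same H3K4me3 antibody after micrococcal nuclease digestion and sonication. Dnmt TKO cells are commonly those that lack the DNA methyltransferases Dnmt1, Dnmt3a and Dnmt3b, so the introduced Dnmt3a2 stands on a background shared by R and WT. The labels do not say what the R construct changes. The H3K4me3 library of cells with the WWD construct is given beside the comparison. Each construct had 1 H3K4me3 library, titled with the number 1, and Dnmt3a2 was also profiled in samples titled bulk. The labels do not say whether number 1 is a single clone, so a difference between constructs cannot be told apart from one between cell lines or between ChIP experiments, and no test was run.

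H3K4me3 is a histone mark found at the promoters of active genes and, in embryonic stem cells, also at many developmental promoters that carry a repressive mark at the same time. Dnmt3a2 is a short isoform of Dnmt3a, an enzyme that adds methyl groups to DNA de novo and is well expressed in embryonic stem cells. Its ADD domain binds the tail of histone H3 when lysine 4 is unmethylated, and H3K4me3 prevents this binding, which is one reason why active promoters usually lack DNA methylation. The title of the series names an engineered histone-recognition domain in Dnmt3a and chromosomal stability. The design names matched H3K4me3 distributions, and the comparison asks how far H3K4me3 differed between R and WT cells.

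The WT library held 18801269 reads in all and 2083427 in the regions, and the R library held 27424019 and 2546815. Signal is given per region, scaled to 10000000 library reads. The mean was 28.8 in R and 34.3 in WT, a ratio of 0.838 (95% counting interval 0.837 to 0.840). The WWD mean was 30.6, between them. Intervals throughout cover counting error alone and no variation between libraries. They take each read as independent, whereas reads amplified by PCR need not come from separate molecules, so they can be too narrow.

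The difference was not the same along the distribution. The lower quartile was 2.55 in R and 6.91 in WT, a ratio of 0.369, whereas in WWD it was 5.77. The medians were 17.5 in R and 21.8 in WT, a ratio of 0.803, and the 99th percentiles were 154 and 165, a ratio of 0.933. The upper ends of the 2 distributions were thus closer than their lower ends, which compares percentiles and not the same regions. With each library divided by its own median, the mean of R was 1.04 times that of WT, so the direction of the mean difference depends on the scaling.

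Region by region, log2 ratios were taken after adding 3.72 reads per 10000000 to each value. The lower quartile of the ratios was -0.99 and the upper quartile 0.27. R was over 2-fold lower than WT at 7780 regions (24.1%) and over 2-fold higher at 2926 (9.06%). A further 202 regions, with 7 reads in WT and 0 in R, lay exactly at 2-fold lower and were not counted. With log2 values centred on each library's median, which differed by -0.27 between R and WT, 5806 regions (18.0%) were lower and 4388 (13.6%) higher. For WWD against WT, which shares the WT library, the counts without centring were 4850 lower (15%) and 2727 higher (8.44%).

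**Figure D1:**
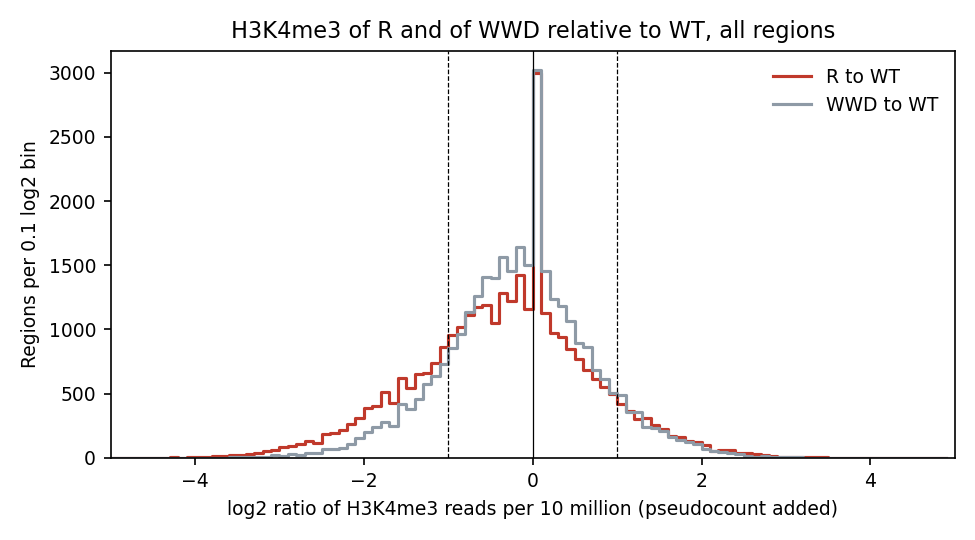
Number of regions (y axis, per 0.1 log2 bin) by log2 ratio of scaled H3K4me3 reads (x axis), for R to WT and WWD to WT. Dashed lines mark 2-fold. The R curve has the heavier lower side, with 24.1% of regions over 2-fold lower, and the narrow peak at 0 holds the regions without a read in either library.

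Well covered regions differed less. Among the 8410 regions with at least 200 reads in R plus WT, 11.4% were over 2-fold lower in R and 5.28% higher. Among the 1212 with at least 500 reads, 4.04% were lower and 2.39% higher, and the median log2 ratio was -0.05. Ordering by R plus WT uses the compared libraries themselves, so regions were also ordered by the WWD library, which is in neither group.

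In quintiles of WWD H3K4me3, the share of signal retained in R was nearly flat. In the lowest quintile the mean was 4.11 in R and 5.03 in WT, a ratio of 0.817 (0.808 to 0.826). In the middle quintile it was 20.8 and 24.3, a ratio of 0.856 (0.852 to 0.860). In the highest quintile it was 72.5 and 86.4, a ratio of 0.839 (0.837 to 0.842). The top quintile ratio was 1.03 times that of the bottom quintile (1.02 to 1.04). Summed reads in R were thus below WT by a like share at regions weakly and strongly marked in WWD. WWD levels went with WT more closely than with R, with Spearman's rho of 0.85 and 0.78. The ordering is therefore not equally close to both compared libraries. By the median log2 ratio of each quintile the order turned, with the top over bottom ratio at 0.842 and medians of -0.03 in the lowest and -0.27 in the highest quintile. In the lowest quintile the median level was 0.0 in R and 2.66 in WT, so the 3.72 reads added to each value hold many ratios near 0. The turned order is therefore not read as a smaller difference at weakly marked regions.

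The scatter within quintiles was wider in R. The quintiles were set by WWD, which follows WT more closely than R, and the part of this in the scatter was not tested. The coefficient of variation across regions was 0.871 in R and 0.675 in WT in the middle quintile, and 0.622 and 0.522 in the highest. In the middle quintile 7.79% of regions held no read in R against 1.04% in WT, and in the lowest quintile 57.1% against 31.2%. In that middle quintile 27.3% of regions were over 2-fold lower in R and 11.3% higher.

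**Figure D2:**
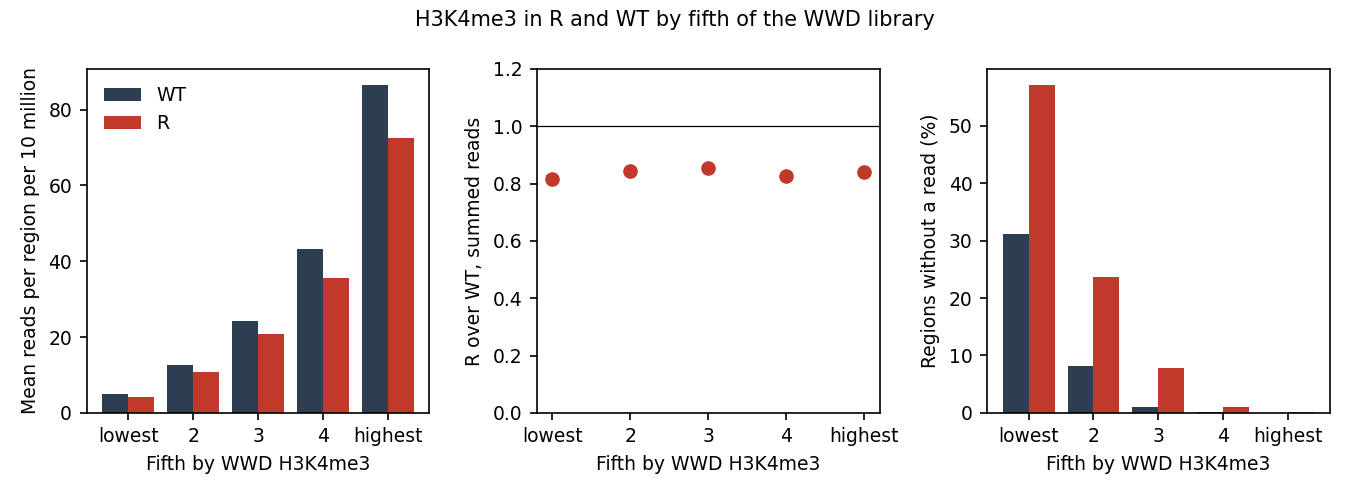
Mean scaled H3K4me3 reads per region (left), ratio of summed reads R over WT with 95% counting intervals that are smaller than the points (middle) and percent of regions without a read (right), for quintiles of regions set by the WWD library. The ratio stays between 0.817 and 0.856, while empty regions are more frequent in R in each quintile.

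Loss of all reads was more frequent in R than in WT. R held no read at 3879 regions where WT had reads, 12.0% of all regions (exact Clopper-Pearson interval 11.7 to 12.4). WT held none at 704 regions where R had reads, or 2.18% (2.02 to 2.35). Of the 3879, 2563 had reads in WWD and 1316 had none. The WT library held a median of 10 reads at them, with quartiles of 5 and 19 and a highest value of 128. At the 704 regions R held a median of 15 reads, with quartiles of 4 and 29 and a highest value of 99. Of these 704, 406 had reads in WWD and 298 had none. Over all regions, 11.9% held no WWD read. A value of 0 allows up to 3 reads, which is 1.09 reads per 10000000 in R and 1.60 in WT. With at least 20 reads in the other library, 902 regions were empty in R and 293 in WT, and with at least 50 reads 110 and 54. R was the deeper library by total reads, while a smaller share of its reads lay in the regions, 9.29% against 11.1% in WT. The part of that lower share in the empty regions was not tested.

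The log2 ratio of single regions spread widely between any pair of the libraries. At the 18739 regions with at least 20 reads in both R and WT, the spread of the log2 ratio, as an SD from its quartiles, was 0.85, against a median counting error of 0.23. With 1 library per construct, this spread holds variation between libraries as well as between constructs, and they cannot be told apart. For WWD and WT the spread was 0.69 over 19824 regions, and for R and WWD it was 0.88 over 19119. Each pair has its own set of regions, with at least 20 reads in both of its libraries. Over these unlike sets, R stood apart from both other libraries by about the same spread, and WWD lay nearer to WT.

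Neighbouring regions had related levels, but their differences between R and WT were nearly uncorrelated. For the 7074 pairs of neighbouring regions at most 500 bp apart, Spearman's rho between the levels of the neighbours was 0.51 in WT and 0.43 in R, whereas rho between their log2 ratios was 0.021. At gaps above 500 and up to 1000 bp, over 3488 pairs, rho was 0.44 and 0.38 for the levels and 0.033 for the ratios. Neighbours share a library, and these values are descriptions. A neighbour within 1000 bp of a region over 2-fold lower in R was itself lower in 25.8% of cases, against 24.7% over all members of such pairs. For regions over 2-fold higher these shares were 8.98% and 7.69%. A region of 100 bp called lower or higher was thus beside another such region little more often than any other.

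**Figure D3:**
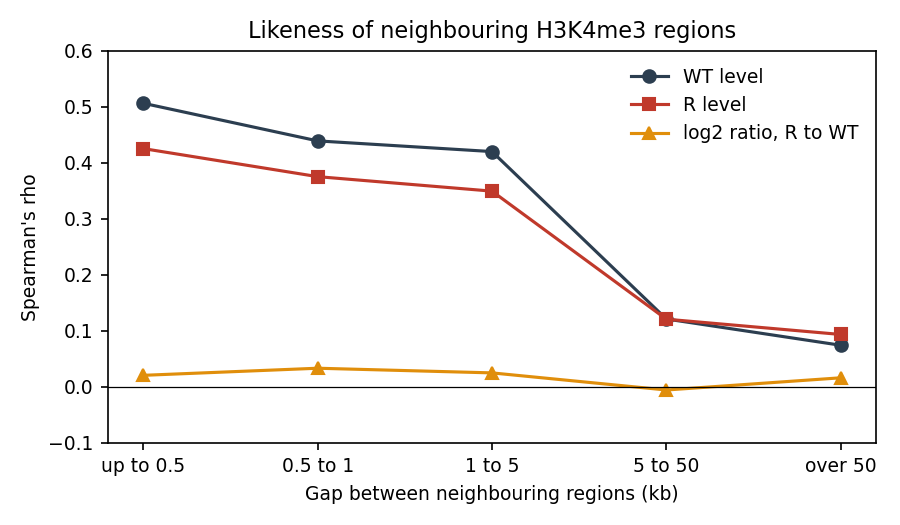
Spearman's rho between neighbouring H3K4me3 regions (y axis) by the gap between them in kb (x axis), for the WT level, the R level and the log2 ratio of R to WT. Levels go together up to 5 kb, while rho of the ratio stays at 0.033 or less at every gap.

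Because of this, regions were joined into clusters where neighbours lay within 1000 bp, and reads were summed. Summed clusters of 3 or more regions with at least 60 reads in R plus WT numbered 2158 and held 7039 regions. Their median log2 ratio was -0.29, with quartiles of -0.69 and 0.09. R was over 2-fold lower at 310 clusters (14.4%) and over 2-fold higher at 51 (2.36%). Centred on the library medians these were 148 (6.86%) and 115 (5.33%), so lower clusters outnumbered higher ones by less after centring. WWD was over 2-fold lower than the shared WT library at 156 clusters (7.23%) and higher at 34 (1.58%). The filter counted reads in R and WT and not in WWD, so a cluster high only in WWD could be left out. The WWD counts are therefore not like for like with those of R.

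The clusters with the largest differences are given by mm9 position, since the files name no genes and the gene table at hand is on another assembly. At chr17:88197157-88198138, 3 regions held 37, 54 and 58 reads in WT and 0, 1 and 2 in R. Summed over the cluster, WT held 149 reads, WWD 97 and R 3, and the scaled value was 72.4-fold lower in R (counting interval 24.3 to 355). Every region of this cluster lost nearly all its reads in R, and WWD kept reads in each.

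At chr19:56796058-56797902, 4 regions held 22, 16, 12 and 33 reads in WT and 0 each in R, with 48 in all in WWD. Against a floor of 3 reads over the cluster, R was 40.4-fold lower, and the lower limit of the counting interval was 32.1-fold. At chr7:6210866-6213214, R held 1 read over 5 regions, WT 70 and WWD 77, and the WT to R ratio of 102 had a wide counting interval (17.7 to 4090). These clusters were empty or nearly so in R alone among the 3 libraries. They were picked for low R values against WT, so nothing is read from WWD holding reads there.

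At chr12:18859174-18860206, WT held 74 reads, WWD 114 and R 5. At chr14:47009280-47010248 they held 93, 35 and 11, and at chr12:71328136-71328954 they held 54, 11 and 7, where WWD was low as well. The last of these rested on 2 regions, with 21 and 32 WT reads.

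In the other direction, chr6:12074696-12075714 held 117 reads in R, 59 in WWD and 3 in WT, a 26.7-fold higher scaled value in R (8.93 to 132). Its 3 regions held 38, 36 and 43 reads in R and 0, 3 and 0 in WT, so the gain was shared by all of them, and WWD held 18, 27 and 14. On chromosome X, chrX:91214416-91215945 held 60 reads in R, 1 in WT and 0 in WWD over 5 regions, of which 3 carried the R reads with 18, 22 and 20. The R to WT ratio was 41.1 (7.11 to 1651). This was the only one of the 6 highest clusters without a WWD read.

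At chr1:91027677-91028448, R held 56 reads, WWD 53 and WT 5, with 48 of the R reads in 1 region. At chr17:35705036-35706751, R held 58 reads, all in 1 region, against 7 in WT and 6 in WWD. The remaining members of the 6 highest were chrX:66613187-66614243, with 184 reads in R, 29 in WT and 36 in WWD, and chrX:19636375-19638192, with 121, 20 and 49. These lists were picked as the extremes of 2158 clusters, and the counting intervals make no allowance for that. For the same reason nothing is read from whether WWD lay nearer to R or to WT in them. The filter of at least 60 reads also used the compared libraries. Thinly covered members of both lists passed it mainly through the library in which they were high.

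Chromosome X stood apart in the direction of its differences. It held 84 of the clusters, and R was over 2-fold higher at 10 of them (11.9%), against 41 of the 2074 on autosomes (1.98%). Clusters over 2-fold lower made up 11.9% on X and 14.5% on autosomes. The median log2 ratio was -0.02 on X and -0.30 on autosomes. Clusters on X were thinner, with a median of 269 reads in R plus WT against 522. With at least 200 reads, 6 of 60 on X (10.0%) and 20 of 1823 on autosomes (1.10%) were over 2-fold higher. For WWD against the same WT library, 0 of the 84 on X (0.0%) and 34 of the 2074 on autosomes (1.64%) were over 2-fold higher, and 8.33% and 7.18% were lower. Because clusters were kept by reads in R plus WT, those high only in WWD could be missing. The cluster chrX:91214416-91215945, with 1 read in WT and 0 in WWD, had no WWD ratio and was counted as neither. The difference between R and WWD in these counts is thus not read as a result.

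The 10 higher clusters were spread along X, from chrX:7672759-7674590 to chrX:148802727-148803847. Their log2 ratios ranged from 1.07 to 5.36. At chrX:98891240-98893072, R held 194 reads, WT 41 and WWD 59, a log2 ratio of 1.70 in R and 0.06 in WWD. At chrX:108576096-108577237 they held 341, 104 and 225, with log2 ratios of 1.17 and 0.64. At chrX:35928235-35929366 they held 159, 52 and 141, where WWD came close to R, with 0.97 against 1.07. WWD was above WT at 7 of the 10, with a median log2 ratio of 0.51 over the 9 where a ratio could be taken. The 10 were picked for WT lying low against R, and the WWD ratio uses the same WT library. Nothing is therefore read from WWD lying above WT there.

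**Figure D4:**
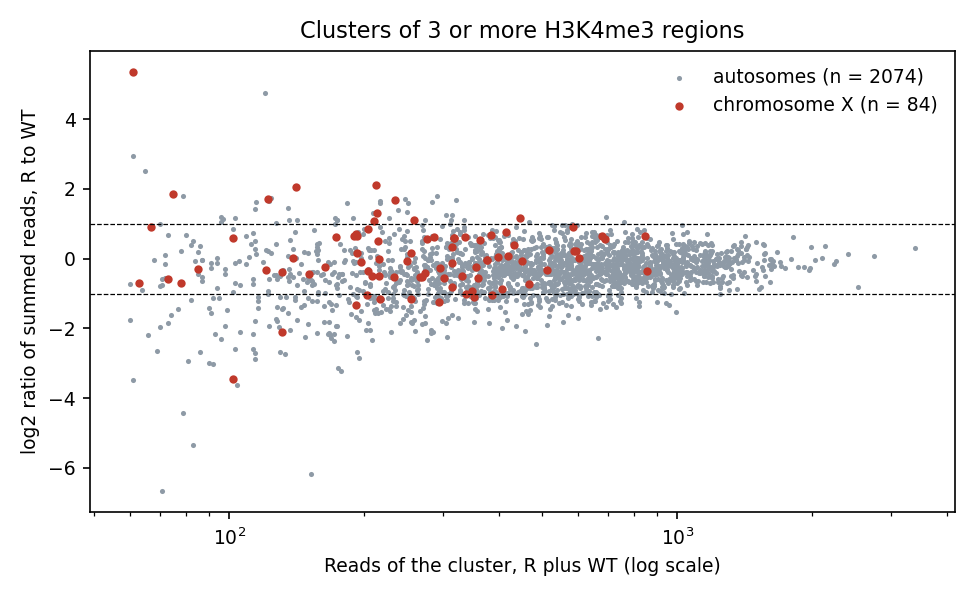
Clusters of 3 or more H3K4me3 regions by reads in R plus WT (x axis, log scale) and log2 ratio of summed reads, R to WT (y axis), for autosomes and chromosome X. Dashed lines mark 2-fold. On X, 10 of 84 clusters lie above the upper line, and on autosomes 41 of 2074.

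By whole chromosome, R over WT was compared with its value of 0.836 over all autosomes. Relative to that, the 19 autosomes lay between 0.939 and 1.05. The lowest were chromosome 10, with 0.939 (0.931 to 0.947), chromosome 1, with 0.964 (0.957 to 0.972), and chromosome 14, with 0.979 (0.969 to 0.989). The highest autosomes were chromosome 18, with 1.05 (1.03 to 1.06), and chromosome 6, with 1.04 (1.03 to 1.05). WWD over WT spanned 0.962 to 1.05 over the same autosomes. The number of chromosome copies was not measured.

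Chromosome X had the highest value, 1.11 (1.10 to 1.13), and WWD over WT was 1.09 there. Mean signal on X was 17.7 in R, 18.96 in WT and 18.4 in WWD, and the R over WT ratio on X was 0.932. Of the 1012 regions on X, 138 were over 2-fold higher in R (13.6%), against 8.91% on autosomes, and 22.8% were lower, against 24.1%. The median log2 ratio was -0.20 on X and -0.25 on autosomes, so the offset of X was smaller at its typical region than in its summed reads. With signal capped at 50 reads per 10000000 per region the X value was 1.05.

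**Figure D5:**
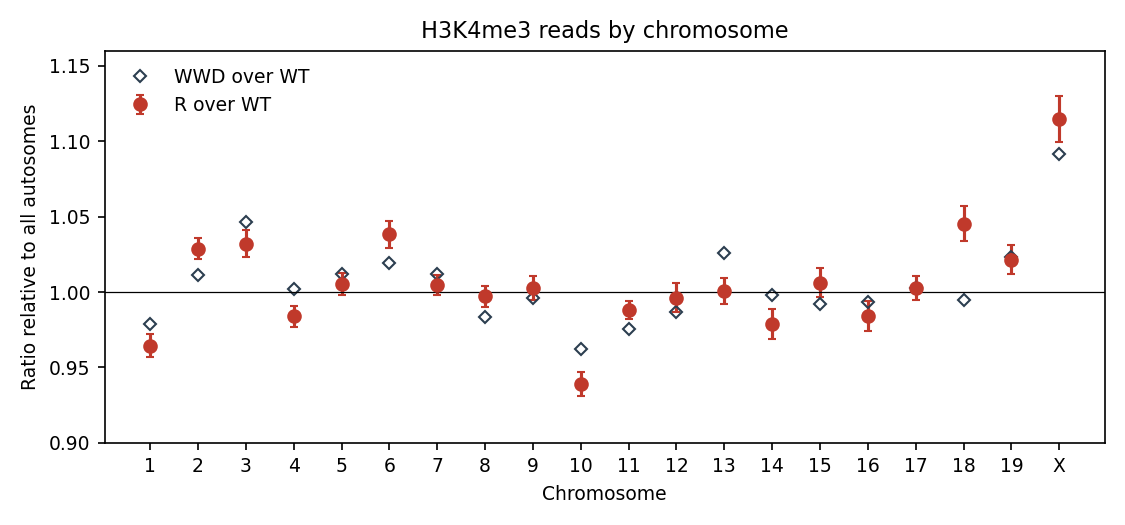
Ratio of summed H3K4me3 reads by chromosome, divided by the same ratio over all autosomes (y axis, not from 0), for R over WT with 95% counting intervals and for WWD over WT. Autosomes lie between 0.939 and 1.05 for R, and chromosome X at 1.11.

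Stretches of 5 Mb gave a finer view, with 466 windows of at least 15 regions. R over WT had a median of 0.845, and 90% of windows lay between 0.695 and 1.09. It was above 1 in 50 windows (10.7%), of which 7 were among the 22 on X. Windows next to each other had a Spearman's rho of 0.14 over 403 pairs.

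The lowest window was chromosome 9 from 10 to 15 Mb, where 19 regions held 1273 reads in WT and 1033 in R, a ratio of 0.556 (0.512 to 0.604), while WWD over WT was 0.814. R was over 2-fold lower at 8 of these regions and WWD at 2. Chromosome 8 from 45 to 50 Mb was the best covered of the low windows. Its 56 regions held 5493 reads in WT and 4895 in R, a ratio of 0.611 (0.588 to 0.635), with WWD at 0.868. R was over 2-fold lower at 22 of the 56 and WWD at 10. Without the region with most reads the ratio was 0.608.

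Chromosome 7 from 75 to 80 Mb had 0.585 and chromosome 5 from 40 to 45 Mb had 0.626, where WWD had 0.819 and 0.855. The low windows were picked for their low R values, so their counts of lower regions follow in part from the choice. Nothing is read from WWD lying nearer to WT there.

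Of the highest windows, chromosome X from 65 to 70 Mb showed the broadest rise. There 11 of 22 regions were over 2-fold higher in R and 2 lower, and R over WT was 1.32 (1.18 to 1.47). WWD over WT was 1.28, with 5 regions over 2-fold higher. Chromosome 8 from 5 to 10 Mb had 1.41 in R and 1.03 in WWD, and chromosome 12 from 45 to 50 Mb had 1.31 and 0.941. The median log2 ratios of R to WT in these 2 windows were 0.03 and 0.0. R was over 2-fold higher at 3 of 16 and 4 of 19 regions, and lower at 1 in each. Chromosome X from 105 to 110 Mb had 1.41, but 1 region with 204 reads in R and 22 in WT weighed heavily, and without it the value was 1.19. The median log2 ratio of its 20 regions was -0.32, with 5 over 2-fold lower in R and 4 higher, and WWD over WT was 1.24. The high windows were picked for their high R values, so their counts of higher regions follow in part from the choice. Over all regions 9.06% were over 2-fold higher in R and 24.1% lower, and on X 13.6% and 22.8%.

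Dnmt3a2 reads at the same regions are a readout that the comparison did not use. Each Dnmt3a2 column may hold more than 1 sample of its construct. At the 5957 regions with a Dnmt3a2 read in R or WT, mean H3K4me3 was 25.8 in R and 29.6 in WT, a ratio of 0.870 (0.866 to 0.874). At the 26336 regions without one it was 29.4 and 35.4, a ratio of 0.832 (0.830 to 0.834). The former ratio was 1.05 times the latter (1.04 to 1.05).

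By the cells in which the Dnmt3a2 read was found, the H3K4me3 ratio was 0.868 where only R had a Dnmt3a2 read (2764 regions), 0.874 where only WT had one (2796) and 0.851 where both had one (397). At the 361 regions with at least 10 Dnmt3a2 reads in R it was 0.860 (0.845 to 0.876), and at the 221 with at least 10 in WT it was 0.910 (0.889 to 0.932). WWD over WT for H3K4me3 likewise was 0.917 with and 0.886 without a Dnmt3a2 read in R or WT.

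Position relative to the other tables made less difference. R over WT came to 0.837 at the 15693 regions within 500 bp of an H3K4me1 or H3K4me2 region and 0.839 at the 16600 others. The first was 0.998 times the second (0.994 to 1.002). Mean WT signal was 39.9 at the former and 29.0 at the latter. Solitary regions had a ratio of 0.841 and those in clusters of 5 or more 0.835, although WT signal was 26.9 and 38.1. The ratio for clusters of 3 or more regions was 0.995 times that for solitary ones. It was 0.934 times when regions were joined within 300 bp, so this comparison depends on the joining distance. Empty regions were fewer in clusters in both libraries, with 27.6% of solitary regions empty in R and 13.8% in WT, against 7.14% and 3.57% in the largest clusters.

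Single regions were picked as the 6 lowest and 6 highest ratios among those above the median mean of R and WT. A region could pass this filter through the library in which it was high. The counting intervals make no allowance for the choice. Of the 6 single regions with the lowest ratios, 4 had neighbours within 1000 bp, 8 in all. Of these 8, 7 were lower in R than in WT and 3 over 2-fold lower. Over all regions the median log2 ratio was itself -0.25. Among all members of neighbouring pairs, 24.7% were over 2-fold lower, so nothing is read from these few neighbours. At chr1:194979407-194979506, R held 1 read, WT 162 and WWD 211. The region beside it, chr1:194979022-194979121, held 47 reads in R, 12 in WT and 16 in WWD, so it was higher in R. At chr1:92949756-92949855, R held 0 reads, WT 124 and WWD 107. Against the floor of 3 reads R was 60.3-fold lower, and the lower limit of the counting interval was 48.3-fold. Its neighbour at chr1:92950116-92950215 held 122 reads in R, 112 in WT and 90 in WWD, which was lower in R after scaling, with a log2 ratio of -0.39.

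At chr4:149612379-149612478 both neighbours were over 2-fold lower in R. R held 4 reads there, WT 165 and WWD 198, and the regions on either side held 70 and 28 reads in R against 145 and 72 in WT. All 3 regions were lower in R. At chr4:116924639-116924738, a solitary region, R held 0 reads, WT 113 and WWD 161. The other 2 of the 6 lowest were chr5:117041781-117041880, a solitary region with 0 reads in R, 128 in WT and 54 in WWD, and chr3:104023597-104023696, with 0, 124 and 116. The latter had 4 neighbours, which held 7, 76, 14 and 23 reads in R and 9, 74, 72 and 37 in WT, so 1 of them was over 2-fold lower in R.

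Among the regions higher in R, chr17:34114782-34114881 held 152 reads in R, 3 in WT and 5 in WWD, and chr6:58856640-58856739 held 128, 1 and 79. At chr4:130190694-130190793 they held 154, 1 and 116, and at chr17:48420874-48420973 they held 117, 1 and 15. None of these 4 had a neighbour within 1000 bp, and WWD was near WT at some and near R at others. At chr5:77689922-77690021, R held 150 reads, WT 3 and WWD 24, and its neighbour held 76, 41 and 113. At chr3:152009183-152009282, R held 127 reads, WT 3 and WWD 21, and its neighbour held 152, 72 and 101. In these last 2 pairs the neighbour carried reads in every library and was less than 2-fold higher in R.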

How the data were processed

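The submitters' processing notes name Bowtie and the mm9 build. How reads were filtered and regions chosen is not stated in these sources. Each deposited column gives log2 values for regions of 100 bp, with a library total and an effective total per the file headers. The form of the values was inferred from the values and headers and is not stated in these sources. They were taken as log2 of 1 plus a scaling factor times the whole reads plus an amount below 1, with 2 decimals. Whole reads were recovered by inverting this form. Rounding moves large values by up to 0.35%. Recovery and ratios were tested on data simulated with this same form. That checks the code and cannot show that the deposited values have the form. The labels list 1 H3K4me3 sample per construct, so no test was run. The pseudocount of 3.72 scaled reads was the 10th percentile of positive values, and differences of 2-fold were counted on log2 ratios. Ratios of reads have exact Clopper-Pearson intervals, and ratios of ratios have normal intervals on the log scale. Columns matching no sample in the labels, 2 in number, were left out. Each Dnmt3a2 column names a construct, for which the labels list 2 samples, and was not assigned to either. The input sample was not analysed here, and gene names and sequences were not used because the gene tables are on another build. Alternatives changed the pseudocount, scaling, filters, caps and joining distance.

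Named were the 6 highest and 6 lowest clusters, and single regions above the median of R and WT, the 5 strongest WT regions, and the 4 highest and 4 lowest windows, leaving chromosome 18 out. The members and lists were chosen with earlier results of these data known. Python 3.11.15, numpy 2.4.6, pandas 2.3.3, scipy 1.17.1 and matplotlib 3.10.9 were used.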

Additional observations from a re-analysis of the deposited data

How the results depend on the processing

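For 12 results, 50 alternatives were computed. Of these, 17 gave a value inside the counting interval, or a count less than 1.5 times away, 29 gave one outside and 4 reversed the direction. Counting intervals are narrow at this depth, so small moves count. Alternatives for clusters, the cap on scaled signal and regions with a read in both were added after seeing the data. No paired analysis was possible because each construct had 1 H3K4me3 library, and for the same reason no library could be left out. The median log2 ratio was -0.32 when the pseudocount was the 1st percentile, -0.12 when it was the median, -0.060 scaled by reads in the regions, -0.22 above the median mean, -0.24 with at least 20 reads, -0.37 for deposited values and 0.015 centred on medians, where its direction turned. With the median as pseudocount, 347 of the 32293 regions were higher and 1487 lower, since a larger pseudocount shrinks ratios. Above the median mean, 1159 were higher and 2943 lower. That filter tests fewer regions, so its counts are not set against those over all regions. The mean ratio was 0.836 on autosomes, 0.870 capped at 50 scaled reads, 0.719 capped at 100 reads, a cap that cuts the deeper R library first, and 1.04 centred on medians. The top over bottom quintile ratio was 2.99 with quintiles set by R and WT, 1.14 with the scaled cap, and turned to 0.850 with the cap at 100 reads and 0.842 for medians. The X over autosome ratio was 1.15 with the cap at 100 reads, 1.05 with the scaled cap and 1.03 for medians. The ratio by Dnmt3a2 reads was 1.05 at 3 reads and 1.04 with the cap at 100. That by nearness was 0.991 at 2000 bp and 0.987 with the cap, and that by clustering, for 3 or more regions against solitary ones, was 0.934 joined at 300 bp and 0.966 with the cap. Higher clusters numbered 115 and lower ones 148 centred on medians, and 3 and 34 of 245 joined at 300 bp; with at least 200 reads 26 of 1883 were higher. Where no construction is named, the cause was not tested.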

Other observations

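The regions with most reads in the WT library were chosen on one of the compared libraries, so their ratios are a description. At chr19:61275611-61275710 WT held 2183 reads, R 2734 and WWD 2918, an R to WT ratio of 0.859 (counting interval 0.811 to 0.909). This region also held 21 WT, 57 R and 48 WWD reads of Dnmt3a2. At chr17:3084298-3084397 WT held 1236 reads and R 1376, a ratio of 0.763 (0.706 to 0.825). At chr8:19784863-19784962 and chr8:20019787-20019886 the ratios were 0.812 and 0.807, while chr8:75094805-75094904 had 719 reads in WT and 1013 in R, a ratio of 0.966 (0.877 to 1.06). The 322 strongest WT regions held 5.95% of the WT reads in all regions and 5.36% of the R reads, a scaled R to WT ratio of 0.756, below the 0.838 over all regions.

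The single region on chromosome Y held 121 reads in WT and 43 in R, a scaled R to WT ratio of 0.244. Mean scaled Dnmt3a2 reads at the H3K4me3 regions of chromosome X were 0.0909 in WT and 0.102 in R, against 0.177 and 0.189 on autosomes. At H3K4me1 regions the order was the opposite, with 0.999 and 1.09 on X and 0.466 and 0.407 on autosomes, and at H3K4me2 regions X had 0.105 and 0.129 against 0.299 and 0.316.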
